A study of Mus musculus with 18 samples.

Results

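Solute carriers (SLC) are membrane proteins that move sugars, amino acids, lactate, fatty acids, nucleosides, metal ions, inorganic ions and mitochondrial metabolites across membranes. The genes described here were chosen by name alone: every gene of the expression table whose symbol begins with Slc, a number, the letter a and a number, with Slc4a1, Slc7a11, Slc8a1, Slc11a1, Slc11a2, Slc16a1 and Slc40a1 set aside. They are 179 of 12988 genes. Of these, 175 are carriers of 41 SLC families, and 4 bear a carrier's name without being one: Slc4a1ap, Slc7a6os and the scaffold proteins Slc9a3r1 and Slc9a3r2. A total of 166 reached 1 FPKM (fragments per kilobase of gene and 1000000 mapped fragments) in at least 3 libraries and were tested. The other 13, which were too low to test, were Slc17a9, Slc18a2, Slc19a1, Slc1a1, Slc22a15, Slc22a17, Slc22a21, Slc2a6, Slc2a9, Slc43a1, Slc46a1, Slc6a9 and Slc9a7.

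The study profiled whole-heart RNA from mice given, as newborns under the skin, adeno-associated virus serotype 9 (AAV9) that carried mouse Fgf17 or a control vector, followed by surgery at 8 weeks of age. The 5 groups were myocardial infarction (MI, in which the left anterior descending coronary artery was tied off for good) at day 3 with FGF17 (4 libraries) or the control vector (4), MI at day 14 with FGF17 (3) or the control vector (3), and sham surgery with the control vector (4). The sham mice therefore also carried a vector, their day of collection is not given, and no sham group received FGF17, so an effect of FGF17 in uninjured hearts cannot be told apart from one after MI. Strain and vector promoter are not given, and the labels do not say that libraries came from separate animals, so p-values measure the spread between these libraries.

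The heart draws most of its energy from fatty acids burned in mitochondria. Carnitine carriers, the ADP/ATP carriers and the malate and aspartate shuttles of the SLC25 family link that oxidation to the cytosol, while GLUT4 (Slc2a4) brings glucose into muscle in response to insulin. Immune cells and fibroblasts rely more on GLUT1 (Slc2a1), on lactate exporters and on amino acid exchangers, and endosomal carriers of peptides and metals are known from macrophages.

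Before the results, the libraries themselves. Summed FPKM lay between 301085 and 362004, and the 13 mitochondrially encoded genes took 18.8% to 41.7% of it, the sham libraries holding the highest shares (35.6% to 41.7%). Library 4 of the control-vector MI hearts at day 3 (18.8%) and library 4 of the FGF17 hearts at day 14 (20.8%) stood below the rest of their groups. Libraries are numbered as in the table's columns. Fgf17 itself was 47.0 to 75.6 FPKM with FGF17 at day 3 and 45.3 to 93.4 FPKM with FGF17 at day 14, against at most 0.380 FPKM in any control-vector library. Macrophage markers (8 genes) summed to 1395 to 1666 FPKM in control-vector MI hearts at day 3 and 804 to 1234 FPKM at day 14, against 257 to 285 FPKM in sham hearts. Fibroblast markers (6 genes) summed to 843 to 1180 FPKM at day 3 and 726 to 996 FPKM at day 14, against 162 to 187 FPKM in sham hearts. Cardiomyocyte markers (8 genes) summed to 5399 to 6748 FPKM at day 3 and 6395 to 7688 FPKM at day 14, against 7825 to 9231 FPKM in sham hearts. Neutrophil markers (5 of 6 listed genes measured) summed to 169 to 318 FPKM at day 3 and 11.4 to 28.2 FPKM at day 14, against 4.95 to 27.1 FPKM in sham hearts. Erythroid markers (6 genes, mostly globins) summed to 4885 to 7941 FPKM with FGF17 at day 3, against 15134 to 25730 FPKM with the control vector at day 3, and were at 1765 to 4010.1 FPKM in sham hearts. In the test described below, 1 of the 6 was lower with FGF17 at day 3 and none at day 14. None of these measured marker genes was at 0 in every library.

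One gene dominated the carriers of the heart. Slc25a4, the ADP/ATP carrier of muscle mitochondria that exports ATP to the cytosol, had the highest level of all members in each of the 5 groups, and reached 1349 ± 97.0 FPKM in sham hearts (SD, n = 4). Slc25a5, its relative in dividing cells, was 197 ± 10.9 FPKM in sham hearts, followed by the oxoglutarate/malate carrier Slc25a11 at 143 ± 19.1 FPKM and the phosphate carrier Slc25a3 at 142 ± 21.8 FPKM, which did not differ beyond their spread. The neutral amino acid carrier Slc38a2 was at 59.3 ± 1.93 FPKM and the insulin-responsive glucose carrier Slc2a4 at 45.5 ± 5.15 FPKM. Among all members, 6 had a sham mean of at least 50 FPKM, 43 had one under 1 FPKM, and the median was 2.65 FPKM. Slc25a3, Slc25a4 and Slc25a5 together made up 47.2% ± 0.818 of the summed FPKM of all members in control-vector MI hearts at day 3 (SD, n = 4) and 49.8% ± 1.35 at day 14 (n = 3), against 58.1% ± 1.11 in sham hearts (n = 4).

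At day 3 after MI, most of the amino acid, metal ion and monocarboxylate carriers were higher on the deposited scale, though only a minority with median-of-ratios scaling, and the mitochondrial carriers went both ways, while the carrier genes counted together moved about as often as any gene. A call here is an adjusted p under 0.05 (limma, Benjamini-Hochberg over 12052 genes), and changes are log2 differences of FPKM + 0.5 with their standard error. In control-vector MI hearts at day 3 against sham hearts, 75 of 166 members were higher (45.2%), and the background over all tested genes was 45.9%. A further 30 members were lower (18.1%), with a background of 15.0%. The median change of the members was 0.28, and that of all tested genes was 0.25. Levels relative to the whole library thus shifted upward for most genes after MI: scaled so that the median gene is level (median-of-ratios scaling), the all-gene medians at days 3 and 14 became -0.01 and 0.01, and the members called at day 3 became 45 higher and 54 lower. In these whole-heart libraries, fewer cells of a type and less RNA per cell cannot be told apart.

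Among 28 tested amino acid, peptide and osmolyte carriers, 17 were higher and 1 was lower at day 3, with a median change of 0.53 (0.26 with median-of-ratios scaling, which left 11 higher and 4 lower). Among 21 metal ion carriers, 15 were higher and 1 was lower, with a median of 0.49 (0.21, with 7 higher and 3 lower, under that scaling). Of 8 monocarboxylate carriers 6 were higher and none lower, with a median of 0.41, but only 1 was higher with median-of-ratios scaling. The 38 mitochondrial carriers split into 10 higher and 14 lower with a median of -0.06, which is 0.31 below that of all genes, and under that scaling into 7 higher and 22 lower. This class was counted by family (SLC25) and includes the peroxisomal carrier Slc25a17, which was called higher than in sham hearts at day 3 and day 14. The 128 members other than mitochondrial carriers divided into 65 higher and 16 lower. The smaller classes were 5 higher and 2 lower of 14 sugar carriers, 4 and 3 of 8 bicarbonate and anion exchangers, 4 and 2 of 9 nucleoside and nucleotide sugar carriers, and 2 and 3 of 9 carriers of organic ions, bile acids and carnitine. Macrophage, fibroblast, neutrophil and erythroid markers were higher in the same libraries, as given above, and their part in these class shifts was not tested.

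**Figure D1:**
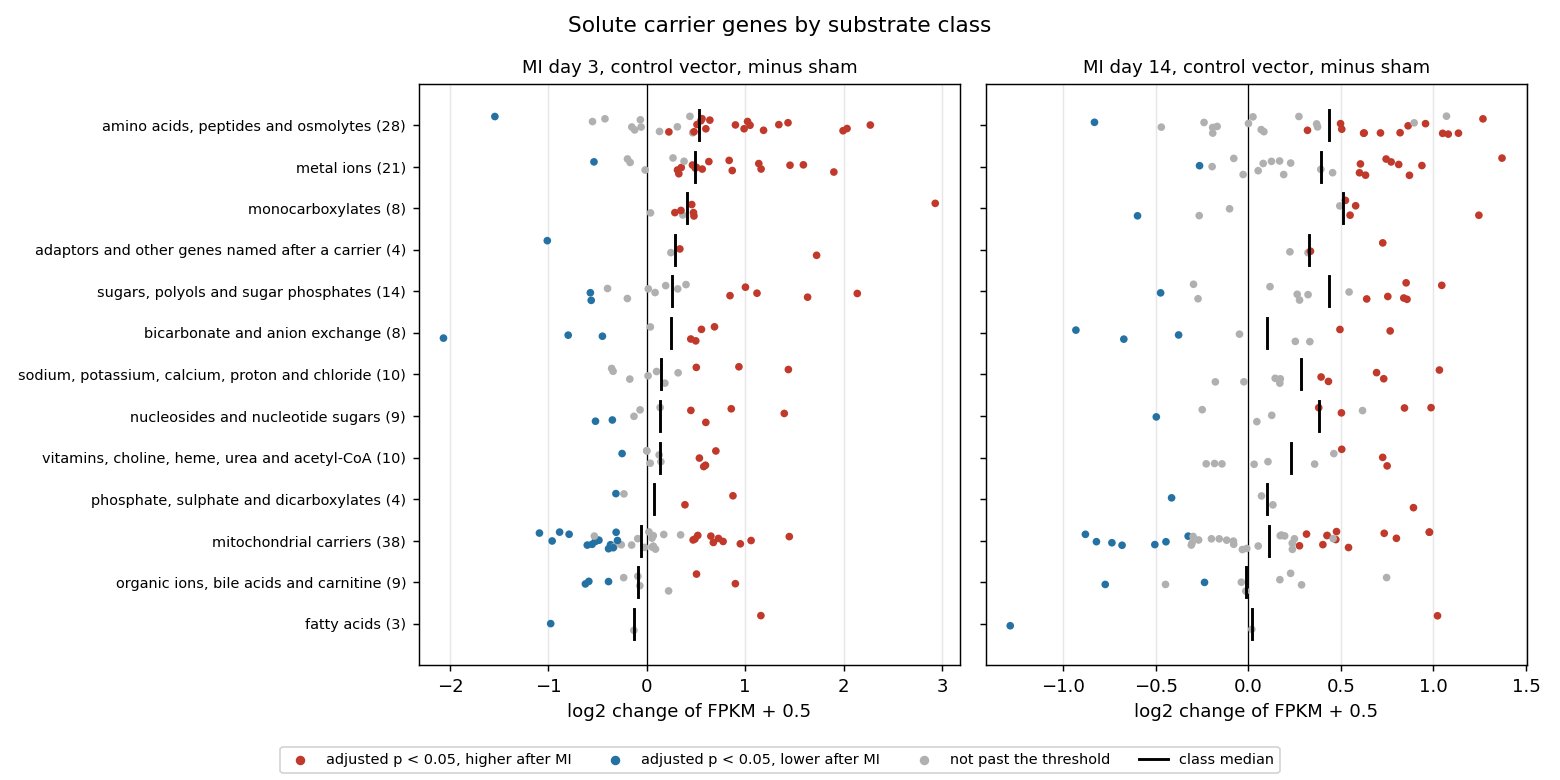
Each point is a tested gene and its log2 change of FPKM + 0.5 (horizontal axis) in control-vector MI hearts at day 3 (left) and day 14 (right) minus sham hearts, by substrate class with the number tested in brackets; black bars are class medians, and coloured points passed an adjusted p of 0.05. Amino acid and metal ion carriers lie mostly right of 0 at both days, and mitochondrial carriers lie on both sides.

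The largest rise belonged to Slc16a3 (MCT4), a lactate exporter of glycolytic cells on chromosome 11 (chr11:120948480-120960868, plus strand, GRCm38). It was at 5.35, 5.38, 6.23 and 5.16 FPKM in control-vector MI hearts at day 3, against 0.409, 0.311, 0.258 and 0.194 FPKM in sham hearts. The groups were far apart, and the log2 change was 2.93 ± 0.13 (adjusted p = 1.5e-11). Slc2a1 (GLUT1), the basal glucose carrier of many cell types (chr4:119108711-119137983, plus strand), was at 10.35, 10.95, 10.32 and 12.99 FPKM at day 3, against 3.14, 3.42, 3.56 and 2.88 FPKM in sham hearts. Every day 3 library lay above every sham library, with a log2 change of 1.63 ± 0.11 (adjusted p = 9.7e-10). Slc2a4 (GLUT4) went the other way, at 36.1, 26.9, 28.1 and 30.7 FPKM at day 3, against 38.2, 45.8, 49.9 and 48.1 FPKM in sham hearts. Its libraries did not overlap either, and it fell by 0.57 ± 0.12 on the log2 scale (adjusted p = 0.00047). The ratio of Slc2a1 to Slc2a4 FPKM was thus 0.287 to 0.423 at day 3, against 0.0599 to 0.0823 in sham hearts. Of the other sugar carriers, Slc2a3 (GLUT3) rose by 0.85 ± 0.22 (adjusted p = 0.0035), Slc2a10 by 1.12 ± 0.15 (adjusted p = 7.9e-06) and Slc37a2, a sugar phosphate carrier of the endoplasmic reticulum known from macrophages, by 2.14 ± 0.15 (adjusted p = 1.8e-09), while Slc2a12, a second insulin-sensitive glucose carrier, fell by 0.56 ± 0.18 (adjusted p = 0.010).

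Slc16a3 and Slc2a1 are textbook targets of hypoxia-inducible factor (HIF), so their promoter windows are shown, from 250 bases before to 50 bases after the RefSeq gene start (GRCm38.p6). Capitals mark ACGTG, the core letters of the HIF site, searched on both strands. Each window is that of the RefSeq start nearest to the gene's start in the expression data. The Slc16a3 window lies at chr11:120948817-120949116 and the Slc2a1 window at chr4:119108495-119108794, both on the plus strand. The Slc16a3 window falls wholly inside the gene's span given above, and so not upstream of the start of that span.
Slc16a3: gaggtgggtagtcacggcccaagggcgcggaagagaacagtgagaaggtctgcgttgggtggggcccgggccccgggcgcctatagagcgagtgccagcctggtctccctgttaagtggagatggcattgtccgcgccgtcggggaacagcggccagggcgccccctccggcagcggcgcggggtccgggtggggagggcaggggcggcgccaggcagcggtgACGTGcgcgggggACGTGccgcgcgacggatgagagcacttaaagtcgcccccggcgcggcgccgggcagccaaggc
Slc2a1: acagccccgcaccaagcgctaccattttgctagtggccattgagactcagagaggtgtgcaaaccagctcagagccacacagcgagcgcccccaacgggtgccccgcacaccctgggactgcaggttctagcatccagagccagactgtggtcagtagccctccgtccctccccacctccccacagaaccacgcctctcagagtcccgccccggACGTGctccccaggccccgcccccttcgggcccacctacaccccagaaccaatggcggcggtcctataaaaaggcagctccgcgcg
The Slc16a3 window held 2 matches and the Slc2a1 window 1. Of all 32851 windows of the table, 19.6% held at least 1 match, so a match is common and is given as a description of these windows. Only 135 of the 179 members had a window, under 80%, and a share over members is therefore void and not given.

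The leading riser among the amino acid and peptide carriers was Slc15a3, a lysosomal carrier of histidine and bacterial peptides in macrophages. It was at 5.26, 5.03, 4.58 and 5.96 FPKM at day 3, against 0.521, 0.804, 0.622 and 0.790 FPKM in sham hearts, a log2 change of 2.27 ± 0.15 (adjusted p = 1.3e-09). Its exons share 28.1% of their bases with Tmem132a on the opposite strand, and since the strand setting of the libraries is not given, reads of the pair cannot be told apart. Slc7a8 (LAT2), a neutral amino acid exchanger, was at 6.59, 5.71, 6.12 and 5.36 FPKM at day 3, against 1.02, 1.15, 1.03 and 1.08 FPKM in sham hearts, a log2 change of 2.03 ± 0.11 (adjusted p = 1.0e-10). No day 3 library of either gene came near a sham library. The leucine exchanger Slc7a5 (LAT1) rose by 1.43 ± 0.14 (adjusted p = 1.7e-07), its heavy chain partner Slc3a2 (4F2hc) by 0.55 ± 0.14 (adjusted p = 0.0020), and Slc7a7, which pairs with the same heavy chain to export arginine and lysine, by 1.34 ± 0.14 (adjusted p = 2.4e-07). The Slc3a2 call was lost with median-of-ratios scaling. Slc38a3 (SNAT3), a glutamine carrier, was the 1 member of the class that fell. It was at 3.46, 2.43, 3.11 and 2.35 FPKM at day 3, against 8.88, 11.1, 9.03 and 7.86 FPKM in sham hearts, without overlap, and fell by 1.54 ± 0.16 on the log2 scale (adjusted p = 2.4e-07). The abundant Slc38a2 (SNAT2), the taurine carrier Slc6a6 and the creatine carrier Slc6a8 did not pass the test, with changes of 0.13 ± 0.10, -0.12 ± 0.11 and -0.42 ± 0.35.

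Among metal ion carriers the most abundant riser was Slc39a1 (ZIP1), a zinc importer of the plasma membrane. It was at 51.5, 46.9, 52.4 and 57.2 FPKM at day 3, against 21.9, 23.0, 23.2 and 23.6 FPKM in sham hearts, a log2 change of 1.16 ± 0.09 (adjusted p = 3.7e-09). The day 3 libraries lay about evenly above the narrow sham range. The zinc importer Slc39a6 (ZIP6) rose by 1.46 ± 0.11 (adjusted p = 4.3e-09), the zinc exporter Slc30a1 (ZnT1) by 0.49 ± 0.09 (adjusted p = 0.00025) and the copper importer Slc31a1 (CTR1) by 0.56 ± 0.15 (adjusted p = 0.0031), and the calls of the last 2 were lost with median-of-ratios scaling. The magnesium carrier Slc41a1 was the 1 metal carrier that fell, by 0.54 ± 0.10 (adjusted p = 0.00014).

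**Figure D2:**
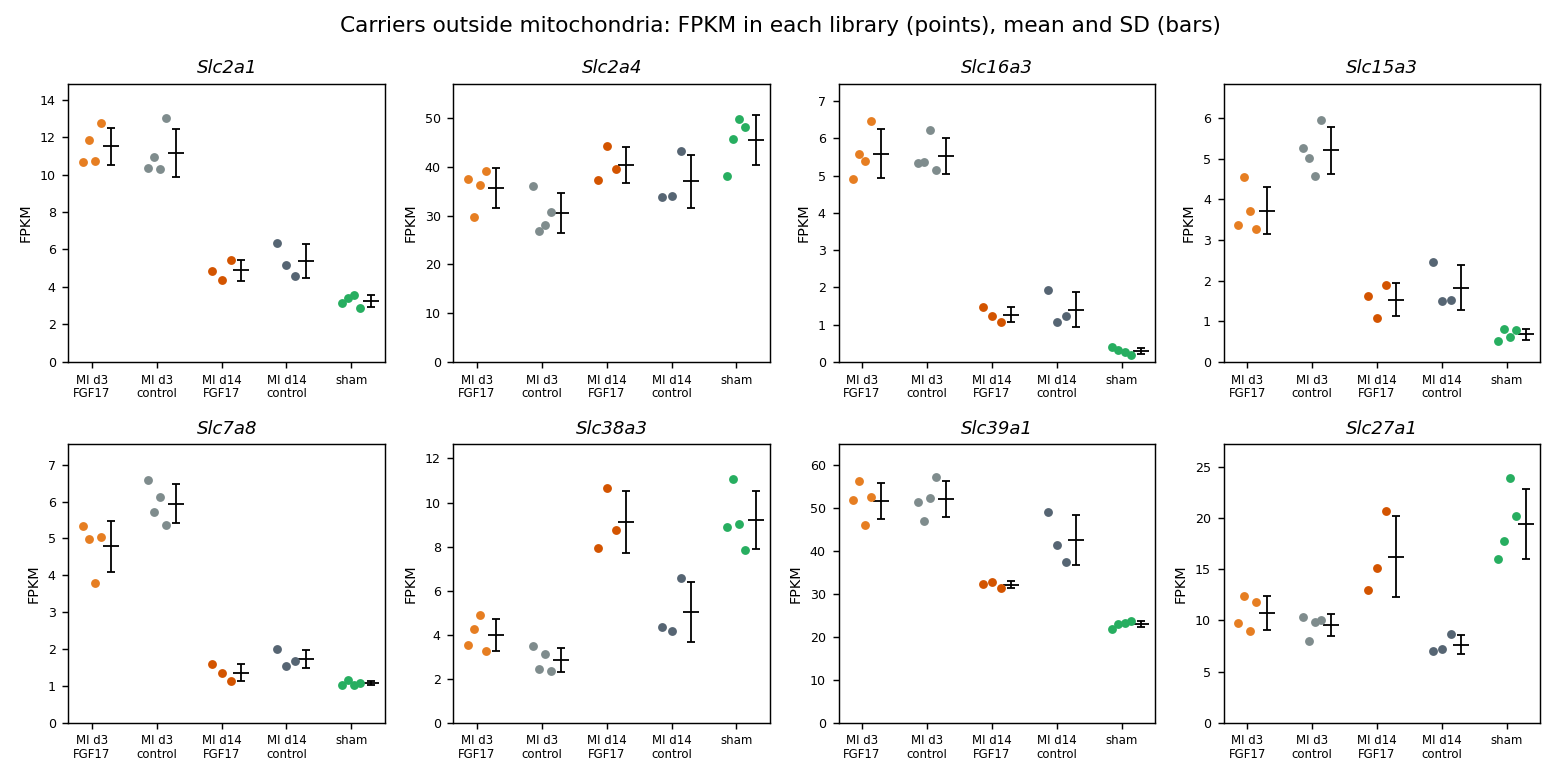
FPKM of 8 carriers outside mitochondria in every library (points) of the 5 groups, with the mean and SD beside them; all axes start at 0. Slc16a3, Slc15a3 and Slc7a8 stand highest in both day 3 groups, at or above 3.28 FPKM in each library, while Slc38a3 and Slc27a1 are lower in control-vector MI hearts than in sham hearts.

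Several single carriers of fatty acid and mitochondrial metabolism were lower at day 3, although their classes held both directions. Slc25a20, the carnitine/acylcarnitine carrier that brings long-chain acyl groups into the matrix (chr9:108662088-108684641, plus strand), was at 23.9, 22.2, 25.5 and 20.4 FPKM, against 41.1, 45.2, 49.2 and 45.1 FPKM in sham hearts, and fell by 0.96 ± 0.09 (adjusted p = 9.5e-08). Slc27a1 (FATP1), a fatty acid uptake protein and acyl-CoA synthetase (chr8:71568882-71587302, plus strand), was at 10.4, 8.03, 9.86 and 10.1 FPKM, against 16.0, 17.7, 23.9 and 20.2 FPKM in sham hearts, and fell by 0.98 ± 0.15 (adjusted p = 2.4e-05). Both genes were lower in each day 3 library than in any sham library, as the choice of the largest falls required. Slc27a4 (FATP4) and the carnitine importer Slc22a5 (OCTN2) did not pass the test (-0.13 ± 0.13 and -0.23 ± 0.12), and Slc27a3 rose by 1.16 ± 0.19 (adjusted p = 6.2e-05). The promoter windows of Slc25a20 (chr9:108661886-108662185) and Slc27a1 (chr8:71568621-71568920), both on the plus strand of GRCm38.p6, are shown for comparison with those above.
Slc25a20: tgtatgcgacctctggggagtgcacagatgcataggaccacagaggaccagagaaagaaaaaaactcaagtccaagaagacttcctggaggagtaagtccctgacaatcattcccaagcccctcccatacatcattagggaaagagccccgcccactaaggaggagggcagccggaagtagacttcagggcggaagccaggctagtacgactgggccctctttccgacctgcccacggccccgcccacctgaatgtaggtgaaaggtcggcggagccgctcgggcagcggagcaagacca
Slc27a1: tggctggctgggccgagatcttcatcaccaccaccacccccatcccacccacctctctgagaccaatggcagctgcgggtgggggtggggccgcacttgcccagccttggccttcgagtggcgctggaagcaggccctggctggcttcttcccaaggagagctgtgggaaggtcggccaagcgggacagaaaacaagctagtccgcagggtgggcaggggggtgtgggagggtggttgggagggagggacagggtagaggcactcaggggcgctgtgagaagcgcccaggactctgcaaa
Neither window held ACGTG, nor AGGTCA, the half-site of nuclear receptors such as the PPARs that govern fatty acid genes, on either strand; 16.3% of all windows held AGGTCA. No match says only that these letters are not in this window.

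Slc25a4 was at 827, 694, 735 and 873 FPKM at day 3, against 1354, 1217, 1450 and 1375 FPKM in sham hearts, and fell by 0.79 ± 0.08 (adjusted p = 2.9e-07). Its highest day 3 library lay well under the lowest sham library. Slc25a5, which has processed pseudogenes that can share its reads, was at 204 ± 13.3 FPKM at day 3, against 197 ± 10.9 FPKM in sham hearts (SD, n = 4 each) and did not pass the test, although with median-of-ratios scaling it was lower (log2 change -0.25, adjusted p = 0.013). The ratio of Slc25a5 to Slc25a4 was 0.215 to 0.316 at day 3, against 0.131 to 0.154 in sham hearts. The malate-aspartate shuttle carriers Slc25a11 and Slc25a12 fell by 0.56 ± 0.10 (adjusted p = 0.00017) and 0.52 ± 0.09 (adjusted p = 5.7e-05), whereas the second aspartate/glutamate carrier, Slc25a13, was at -0.02 ± 0.13. Slc25a34, a relative of the yeast oxaloacetate carrier, fell by 1.09 ± 0.15 (adjusted p = 1.1e-05), and the iron importer Slc25a28 (mitoferrin-2) by 0.89 ± 0.17 (adjusted p = 0.00024).

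Other SLC25 carriers rose at day 3. Slc25a24, a calcium-regulated ATP-Mg/phosphate carrier, was at 16.5, 17.9, 19.3 and 19.0 FPKM, against 5.77, 7.02, 6.22 and 6.41 FPKM in sham hearts, and rose by 1.45 ± 0.10 (adjusted p = 1.2e-09). The citrate carrier Slc25a1, which feeds lipid synthesis in the cytosol, rose by 0.95 ± 0.16 (adjusted p = 5.9e-05), and the dicarboxylate carrier Slc25a10 by 0.52 ± 0.15 (adjusted p = 0.0065), a call lost with median-of-ratios scaling. The family therefore held both directions: cardiomyocyte markers were lower, and macrophage and fibroblast markers higher, in the same libraries, and their part in this split was not tested.

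**Figure D3:**
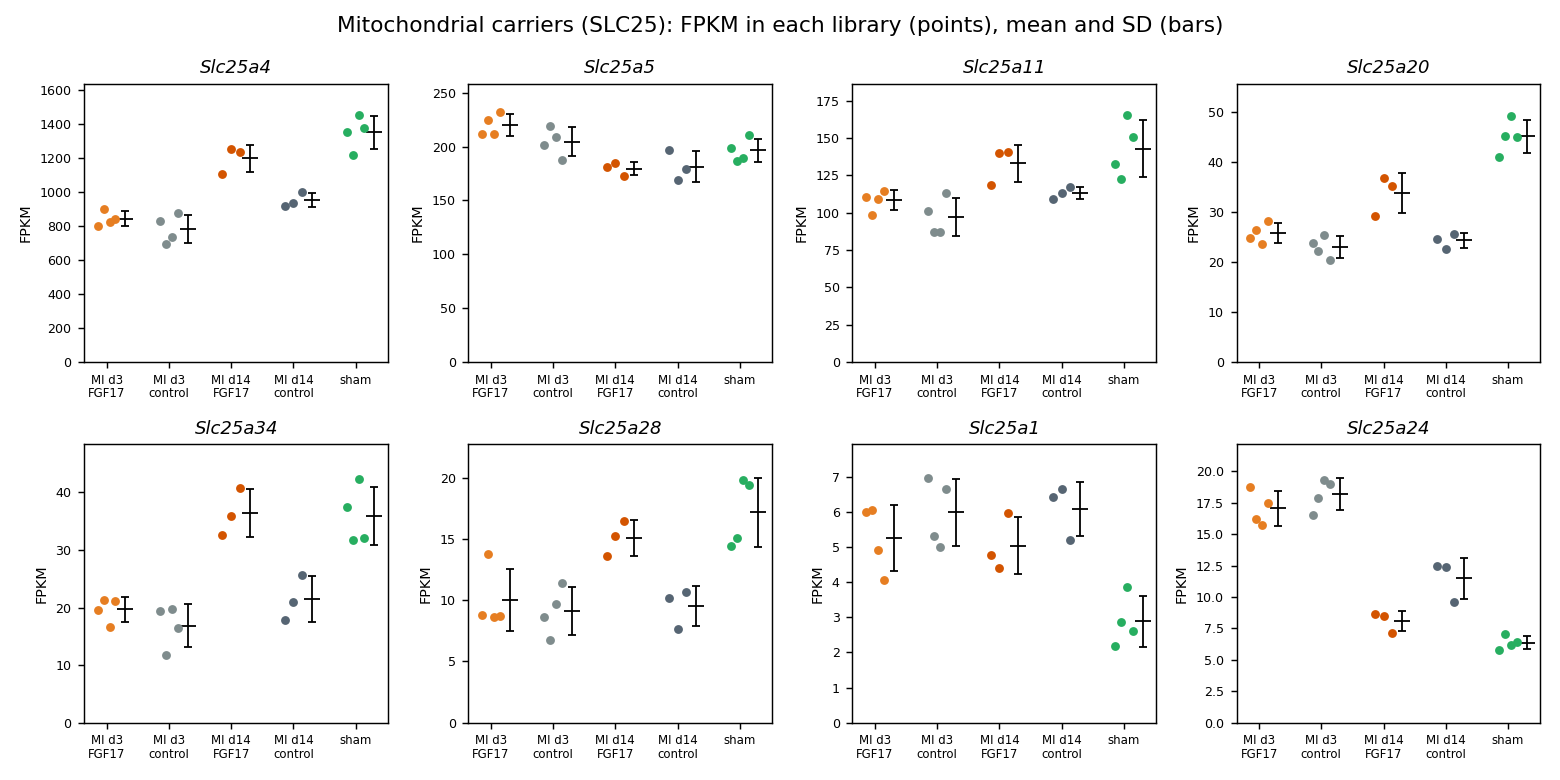
FPKM of 8 mitochondrial carriers in every library (points) of the 5 groups, with the mean and SD beside them; all axes start at 0. Slc25a4 is at 694 to 873 FPKM in control-vector MI hearts at day 3, against 1217 to 1450 FPKM in sham hearts, while Slc25a24 is highest at day 3.

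The ion exchangers held large single changes. Slc26a10, a member of the SLC26 anion exchanger family, was at 2.08, 1.35, 1.34 and 1.77 FPKM at day 3, against 8.21, 7.95, 8.92 and 8.27 FPKM in sham hearts. It had the largest fall of all members at day 3, by 2.07 ± 0.15 (adjusted p = 3.3e-09), but 17.8% of its exonic bases lie opposite B4galnt1, whose reads cannot be told apart from it here. Slc4a3 (AE3), the chloride/bicarbonate exchanger of cardiomyocytes, fell by 0.80 ± 0.16 (adjusted p = 0.00043), and the sodium/bicarbonate cotransporter Slc4a4 by 0.45 ± 0.14 (adjusted p = 0.011). The scaffold Slc9a3r1 (NHERF1) rose by 1.73 ± 0.19 (adjusted p = 5.9e-07), and its relative Slc9a3r2 (NHERF2) was at 33.6, 26.6, 31.1 and 37.1 FPKM, against 63.6, 65.9, 64.5 and 64.9 FPKM in sham hearts, and fell by 1.01 ± 0.12 (adjusted p = 1.1e-06). Library 4, at 20.9 FPKM, was the highest for Slc9a3r1 at day 3, and the other 3 were at 8.76 to 12.2 FPKM, against 3.25 to 3.33 FPKM in sham hearts.

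At day 14 with the control vector, 61 of 166 members were higher than in sham hearts (36.7%, background 41.0%) and 19 were lower (11.4%, background 9.00%), with the sham libraries shared with the day 3 comparison. With median-of-ratios scaling these counts became 44 and 37. Of 28 amino acid, peptide and osmolyte carriers 13 were higher and 1 was lower, and of 21 metal ion carriers 9 were higher and 1 was lower, both shares of higher genes near the background. Monocarboxylate carriers were 4 higher and 1 lower of 8, sugar carriers 6 higher and 1 lower of 14, and mitochondrial carriers 11 higher and 7 lower of 38, or 5 and 16 under that scaling. Among genes at 5 FPKM or more, the glutamine carrier Slc1a5 (ASCT2) led the rises, at 15.5, 12.1 and 14.4 FPKM, against 4.83, 6.17, 5.80 and 7.83 FPKM in sham hearts (log2 change 1.13 ± 0.16, adjusted p = 2.3e-05). Slc43a3, a purine nucleobase carrier counted in the amino acid class by its family, was at 54.7, 43.6 and 49.9 FPKM at day 14, against 23.7, 26.5, 18.1 and 24.5 FPKM in sham hearts (1.08 ± 0.16, adjusted p = 4.1e-05). Neither gene had a day 14 library within the sham range, as the choice of the largest rises required. The lowest were Slc27a1, which fell by 1.28 ± 0.16 (adjusted p = 7.0e-06), Slc26a10 by 0.93 ± 0.16 (adjusted p = 0.00017) and Slc25a20 by 0.88 ± 0.10 (adjusted p = 2.2e-06).

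Set directly against day 3 within the control vector, day 14 had 18 of 166 members higher (10.8%, background 11.2%) and 25 lower (15.1%, background 18.3%). The leading risers of day 3 were lower again: Slc16a3 was at 1.93, 1.06 and 1.22 FPKM at day 14 and fell by 1.69 ± 0.15 against day 3 (adjusted p = 2.5e-07), Slc7a8 fell by 1.54 ± 0.12 (adjusted p = 9.4e-08), Slc15a3 by 1.31 ± 0.17 (adjusted p = 1.3e-05) and Slc2a1 by 0.99 ± 0.12 (adjusted p = 6.2e-06). All of them were still above sham at day 14, by 1.25 ± 0.15, 0.50 ± 0.12, 0.96 ± 0.17 and 0.64 ± 0.12, with the Slc7a8 call lost under median-of-ratios scaling. Slc9a3r2 was at 79.2, 84.8 and 81.6 FPKM at day 14 and rose by 1.35 ± 0.13 against day 3 (adjusted p = 6.6e-07), and it was also above sham, by 0.34 ± 0.13 (adjusted p = 0.036), a call not kept in every setting tried. Slc43a3 rose by 1.23 ± 0.16 (adjusted p = 2.2e-05) and Slc38a3 by 0.71 ± 0.17 (adjusted p = 0.0043). Slc25a4 was higher at day 14 than at day 3 by 0.29 ± 0.09 (adjusted p = 0.022, limma). That call was lost without library 2 (adjusted p = 0.050) or 4 (0.091) of day 14 or library 2 (0.073) or 3 (0.060) of day 3. It was also lost after rescaling to 1000000 (0.051) and in a fit on the compared groups alone (0.106). Slc25a20 and Slc27a1 did not pass the test between the days (0.08 ± 0.10 and -0.31 ± 0.16).

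With FGF17 at day 3, no member passed the test in either direction (limma), and the backgrounds were 0.0581% higher and 0.174% lower. At an unadjusted p under 0.05 there were 18 of 166 members, against 1029 of all 12052 genes. Among the leading risers of day 3, Slc16a3 was 5.59 ± 0.658 FPKM with FGF17 and 5.53 ± 0.475 FPKM with the control vector, and Slc2a1 was 11.5 ± 1.01 FPKM with FGF17 and 11.2 ± 1.26 FPKM with the control vector (SD, n = 4 each). Slc15a3 was 3.73 ± 0.582 FPKM with FGF17 and 5.21 ± 0.575 FPKM with the control vector, and Slc7a8 was 4.78 ± 0.686 FPKM with FGF17 and 5.95 ± 0.531 FPKM with the control vector. Their libraries did not overlap, but neither passed the test (-0.44 ± 0.15, adjusted p = 0.37, and -0.29 ± 0.11, adjusted p = 0.42). How often the libraries of any gene fail to overlap here was not computed. Macrophage markers summed to 1059 to 1369 FPKM with FGF17 at day 3, against 1395 to 1666 FPKM with the control vector, with 0 of 8 called. Their part in these 2 genes was not tested. Slc37a2 was 2.87 ± 0.260 FPKM with FGF17 and 3.52 ± 0.479 FPKM with the control vector, and Slc9a3r1 was 8.57 ± 0.648 FPKM with FGF17 and 12.8 ± 5.64 FPKM with the control vector, both with overlapping libraries (adjusted p = 0.72 and 0.48, limma).

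With FGF17 at day 14, 10 of 166 members were higher than with the control vector (6.02%, background 3.63%) and 13 were lower (7.83%, background 5.98%), and the median change of members and of all genes was -0.04. The higher genes included the fatty acid uptake protein Slc27a1 and 5 mitochondrial carriers. Slc27a1 was at 12.9, 15.2 and 20.7 FPKM with FGF17, against 7.05, 7.20 and 8.66 FPKM with the control vector, with no overlap and a log2 change of 1.02 ± 0.17 (adjusted p = 0.0034). In sham hearts it was at 16.0 to 23.9 FPKM. Slc38a3 was at 7.93, 10.7 and 8.74 FPKM with FGF17, against 4.33, 4.17 and 6.58 FPKM with the control vector (0.82 ± 0.18, adjusted p = 0.013), and at 7.86 to 11.1 FPKM in sham hearts. Slc25a20 was at 29.2, 36.9 and 35.3 FPKM with FGF17, against 24.7, 22.6 and 25.7 FPKM with the control vector (0.46 ± 0.11, adjusted p = 0.014), and at 41.1 to 49.2 FPKM in sham hearts. In these 3 genes each FGF17 library lay above each control-vector library. Such separation was a condition for being listed among the largest rises, so it adds no support. Slc26a10 rose by 0.99 ± 0.17 (adjusted p = 0.0044), Slc4a3 by 0.86 ± 0.19 (adjusted p = 0.012), Slc25a34 by 0.76 ± 0.18 (adjusted p = 0.016), Slc25a28 by 0.65 ± 0.20 (adjusted p = 0.046), Slc25a39, a mitochondrial glutathione carrier, by 0.53 ± 0.15 (adjusted p = 0.033), and Slc25a4 by 0.33 ± 0.10 (adjusted p = 0.037). Slc22a23, an orphan of the organic ion family, was the remaining riser, at 0.58 ± 0.13 (adjusted p = 0.011).

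The lower genes with FGF17 at day 14 were led by Slc25a51, the mitochondrial NAD carrier. It was at 4.70, 5.96 and 4.52 FPKM with FGF17, against 14.3, 13.4 and 10.8 FPKM with the control vector, a fall of 1.27 ± 0.23 (adjusted p = 0.0049). The FGF17 libraries lay under all control-vector libraries of day 14, but the sham libraries spread widely for this gene, from 5.55 to 13.7 FPKM. Slc35a2, the UDP-galactose carrier of the Golgi, was at 1.07, 0.523 and 0.970 FPKM with FGF17, against 2.87, 1.76 and 2.48 FPKM with the control vector, a fall of 1.09 ± 0.27 (adjusted p = 0.021). The zinc carriers Slc30a1 and Slc39a1 fell by 0.49 ± 0.11 (adjusted p = 0.013) and 0.39 ± 0.10 (adjusted p = 0.021), Slc25a24 fell by 0.48 ± 0.11 (adjusted p = 0.016) and the inositol carrier Slc5a3 by 0.53 ± 0.15 (adjusted p = 0.032). The others were Slc16a12, Slc17a5, Slc23a2, Slc35a5 and, named after their values were seen, Slc10a3, Slc30a7 and Slc35a3, with falls between -0.38 and -0.71. Mitochondrial carriers were 5 higher and 2 lower of 38, bicarbonate and anion exchangers 2 higher of 8, metal ion carriers 3 lower of 21 and nucleoside and nucleotide sugar carriers 3 lower of 9.

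**Figure D4:**
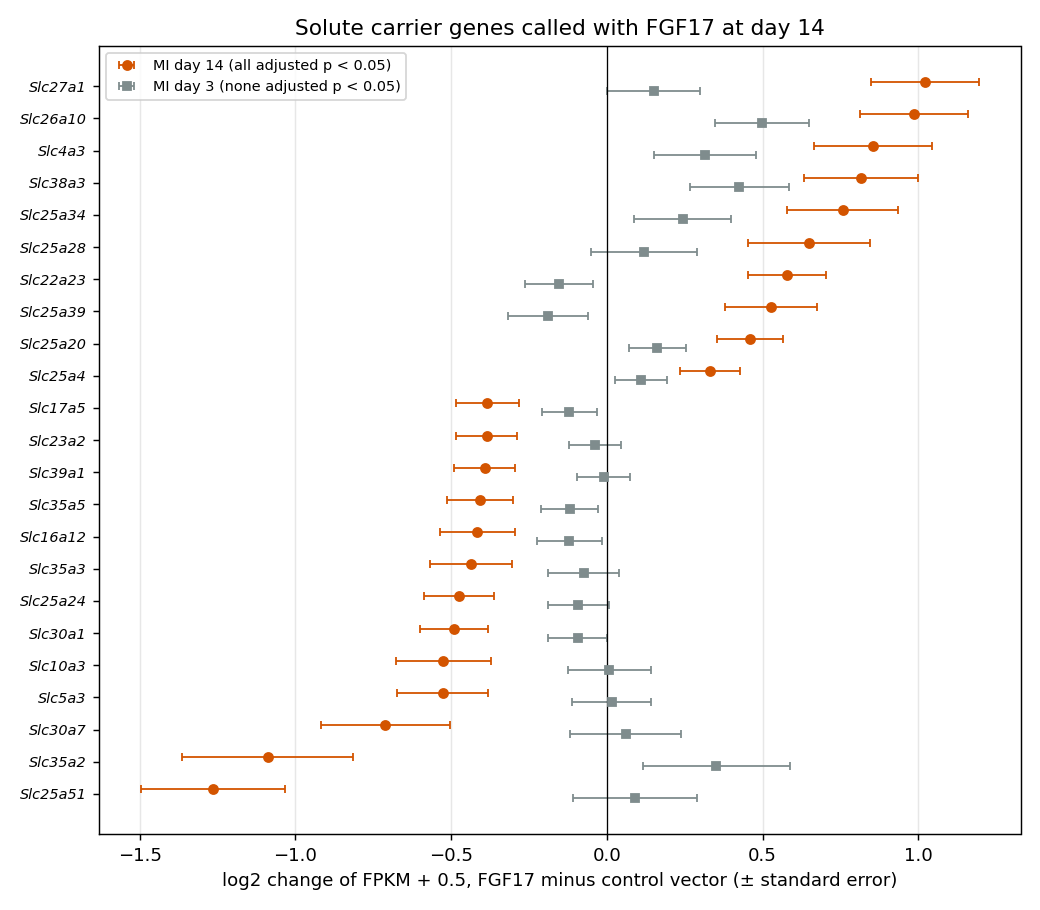
Log2 change of FPKM + 0.5 with its standard error (horizontal axis) for the 23 members called with FGF17 minus the control vector at day 14 (circles), each with the same contrast at day 3 (squares). At day 14 they run from 1.02 for Slc27a1 to -1.27 for Slc25a51; the day 3 values lie nearer 0 and none passed the test.

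These day 14 calls rest on 3 libraries a group and on a spread shared by all 18 libraries: fitted on the libraries of the compared groups alone, 1 higher and 1 lower member remained past the threshold. Slc26a10 and Slc25a51 were the members that passed in each of 29 settings, the 5 FPKM filter left out. Leaving out a single library lowered the higher calls to 4 (FGF17 library 3), 6 (FGF17 library 4), 3 (control library 1) and 4 (control library 2), and the lower calls to 3, 6, 1 and 2 for the same libraries. Between FGF17 and control-vector hearts at day 14, cardiomyocyte markers summed to 7761 to 9136 FPKM against 6395 to 7688 FPKM, macrophage markers to 666 to 715 FPKM against 804 to 1234 FPKM fibroblast markers to 476 to 646 FPKM against 726 to 996 FPKM, and erythroid markers to 3922 to 4206 FPKM against 3419.5 to 14305 FPKM. Of 8 cardiomyocyte markers 2 were called higher, and 1 of 8 macrophage, 1 of 6 fibroblast and 1 of 6 endothelial markers were called lower. All 4 markers of cycling cells were called lower, with sums of 2.29 to 3.10 FPKM against 4.85 to 9.20 FPKM. The 1 tested marker of fast skeletal muscle was also called lower. Adipocyte markers summed to 28.1 to 53.9 FPKM against 64.4 to 109 FPKM, with 0 of 4 called. The part of these markers in the carrier changes was not tested. At day 3, where no library is shared with day 14, 8 of the 10 higher genes and 8 of the 13 lower genes had the same sign as at day 14, or 80.0% and 61.5%, against 72.2% and 74.8% of all genes called at day 14. The difference between the FGF17 effects of day 14 and day 3 was past the threshold for no member (limma, backgrounds 0.108% higher and 0.257% lower; at an unadjusted p under 0.05 there were 24 of 166 members, against 1686 of all 12052 genes), so the effects are not shown to differ between the days. It was -1.36 ± 0.31 for Slc25a51 (adjusted p = 0.060) and 0.87 ± 0.23 for Slc27a1 (adjusted p = 0.10).

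Partner proteins and carriers under other names, 42 tested of 45 listed, moved in both directions at day 3 (20 higher, 13 lower) and at day 14 (19 higher, 10 lower) against sham hearts, with the backgrounds given above. Basigin (Bsg), the chaperone of lactate carriers in muscle, was 246 ± 30.3 FPKM at day 3 and 434 ± 39.5 FPKM in sham hearts (SD, n = 4 each), a fall of 0.82 ± 0.08 (adjusted p = 2.6e-07). Embigin (Emb), an alternative chaperone, was 6.67 ± 0.673 FPKM at day 3 and 0.571 ± 0.0980 FPKM in sham hearts, a rise of 2.74 ± 0.15 (adjusted p = 9.5e-11). The mitochondrial pyruvate carrier subunits Mpc1 and Mpc2 fell by 0.80 ± 0.21 (adjusted p = 0.0031) and 0.50 ± 0.09 (adjusted p = 0.00013), and the fatty acid receptor Cd36 by 0.85 ± 0.17 (adjusted p = 0.00026). With FGF17 at day 14, 4 of the 42 were higher and 4 lower, where the backgrounds over all tested genes were 3.63% and 5.98%. The higher included the channel Vdac1 of the outer mitochondrial membrane at 0.28 ± 0.07 (adjusted p = 0.018), Bsg at 0.35 ± 0.10 (adjusted p = 0.034) and the GLUT4 trafficking regulator Tbc1d4 at 0.44 ± 0.09 (adjusted p = 0.0074). The lower were the sodium pump regulators Fxyd5 at -0.90 ± 0.23 (adjusted p = 0.024) and Fxyd6 at -0.81 ± 0.18 (adjusted p = 0.013), the sideroflexin Sfxn3 at -0.66 ± 0.15 (adjusted p = 0.014) and Tmem165 at -0.60 ± 0.17 (adjusted p = 0.033). Tbc1d4 was also the 1 listed gene whose FGF17 effect differed between day 14 and day 3 (0.64 ± 0.12, adjusted p = 0.032).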

How the data were processed

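RNA-seq of 18 mouse heart libraries was deposited as 1 table of gene FPKM values. FPKM were deposited by the authors; the submitters' processing notes name FastQC 0.11.7, cutadapt 1.17, HISAT2 2.1.0, StringTie 1.3.3 and the GRCm38 build, and library strand is not given in the sources used here. The FPKM table holds no counts, so depth per library is unknown and no counting interval is given. Samples were grouped by their titles. The 12052 genes that reached 1 FPKM in 3 or more libraries were fitted on log2(FPKM + 0.5) with limma 3.58.1 in R 4.3.3, with 1 mean for each of the 5 groups and no covariate. P-values were Benjamini-Hochberg adjusted over all genes tested, with a threshold of 0.05. Fold changes of low genes are understated by the pseudocount. Alternatives were other pseudocounts (0.1 and 1), filters (none, and 5 FPKM), scalings (median-of-ratios, a total of 1000000, without mitochondrially encoded genes), fits on the compared groups, robust variances, a replicate block, and omitted libraries.

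Named genes were, for each comparison, the 8 largest rises and 8 largest falls past the threshold at 5 FPKM or more without overlapping libraries, the member of smallest p in each substrate class, and a constant set of 54 heart and immune cell carriers, of which Slc27a6 has no row among the values used here. Separate libraries were thus a condition for those largest changes and are given as description only. Substrate classes followed SLC family numbers, with single genes reassigned. The members and lists were chosen with earlier results of these data known. Exon overlaps came from the GENCODE annotation of GRCm38 and promoter windows from RefSeq GRCm38.p6.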

Additional observations from a re-analysis of the deposited data

Results flagged for a closer look

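In groups of 4 libraries, 13 values among 86 named genes stood apart from the other 3 libraries by Dixon's test, out of 258 groups checked, where chance at 1 in 20 gives 12.9. In control-vector MI hearts at day 3, library 3 was high for the bile acid family carrier Slc10a6 (3.74 FPKM, others 1.04 to 1.43) and low for the potassium/chloride cotransporter Slc12a7 (3.53 FPKM, others 4.75 to 4.98) and the pyrimidine nucleotide carrier Slc25a33 (4.08 FPKM, others 6.17 to 6.45). In the same group, library 2 was low for the bicarbonate cotransporter Slc4a4 (1.82 FPKM, others 2.24 to 2.31) and library 1 was high for the arginine carrier Slc7a2 (1.73 FPKM, others 0.654 to 0.836). In FGF17 hearts at day 3, library 1 was low for the phosphate carrier Slc25a3 (101 FPKM, others 135 to 138) and the creatine carrier Slc6a8 (9.78 FPKM, others 22.5 to 24.95). Library 2 of that group was high for mitoferrin-2, Slc25a28 (13.8 FPKM, others 8.64 to 8.82), and low for the copper importer Slc31a1 (9.32 FPKM, others 14.4 to 15.2), and library 3 was low for the vitamin C carrier Slc23a2 (3.99 FPKM, others 4.43 to 4.48). Among sham hearts, library 5 was high for Slc16a12 (1.48 FPKM, others 1.05 to 1.11), and library 2 was high for the phosphate carrier Slc20a1 (6.86 FPKM, others 5.66 to 5.82) and low for the nucleoside carrier Slc28a2 (6.71 FPKM, others 8.08 to 8.32). At most 3 of these values fell in 1 library.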

How the results depend on the processing

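Depth is unknown, and with 3 or 4 libraries a group the counts of calls moved with the settings. With median-of-ratios scaling the members called against sham became 45 higher and 54 lower at day 3 and 37 lower at day 14, and 1 difference of FGF17 effects was higher. Under it Slc12a2 (-0.27, adjusted p = 0.014) and Slc25a5 (-0.25, adjusted p = 0.013) were lower at day 3, with changes of 0.01 and 0.06, not past the threshold, without that scaling. A filter at 5 FPKM, which tests fewer genes, left 31 higher at day 3, 27 higher at day 14, 14 lower between the days and 5 lower with FGF17 at day 14. For FGF17 at day 14, the lower calls were 4 after rescaling to 1000000 and 8 without the 2 libraries of low mitochondrially encoded share, where FGF17 at day 3 had 1 lower call. Fitted on the compared groups alone, 1 higher and 1 lower member were called at day 14, and 1 lower difference of effects. Without mitochondrially encoded genes 1 difference of effects was lower. In each of these settings the cause was not tested beyond what the setting itself removes. Leaving out 1 library at a time gave 68 to 75 higher and 22 to 34 lower at day 3, 53 to 65 and 13 to 19 at day 14, 13 to 21 and 19 to 29 between the days, 0 and 0 for FGF17 at day 3, 3 to 13 and 1 to 18 for FGF17 at day 14, and 0 to 1 each for the difference of effects.

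Whether library numbers pair the samples is not known. Of 29 same-numbered pairs, 6 had deviations correlated over 0.1 (range -0.155 to 0.366). The highest value joined library 4 of FGF17 hearts at day 14 and library 4 of control-vector MI hearts at day 3. Correlations between libraries of different numbers were not computed for comparison, so this check cannot decide whether the numbers pair the samples. With the number as a replicate block, FGF17 at day 14 had 8 higher and 6 lower calls, and against sham there were 73 higher and 25 lower at day 3 and 59 and 17 at day 14. Of the members called against sham, 45 of 75 higher and 20 of 30 lower at day 3, and 44 of 61 and 11 of 19 at day 14, were called in each of 29 settings, the 5 FPKM filter left out.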
